A study of Bos taurus with 16 samples.

Results

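Gene expression in bovine endometrium, the inner lining of the uterus, was compared between day 14 and day 5 after timed artificial insemination. The comparison takes the 4 libraries titled day 14 and the 4 titled day 5, which are 8 of the 16 libraries of the series. The other 8 come from days 10 and 18, with 4 libraries each, and are given below only as levels. Every library is a biopsy of a virgin Holstein heifer, sexually mature, non-lactating, aged at least 7 months and weighing at least 340 kg. All heifers of both days had the same synchronisation: 100 μg of a GnRH analog and a vaginal device with 1.38 g of progesterone, then cloprostenol, a prostaglandin F2α analog, at 500 μg when 96 hours had passed and again when the device came out at 120 hours. All were then inseminated with Holstein semen, and animals were allotted to days at random, per the labels. Whether a given heifer carried an embryo is not in the labels, and every library analysed here is from an inseminated heifer, so the stage of the cycle and the presence of an embryo cannot be told apart.

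In the cow, day 5 falls while the corpus luteum is still growing and circulating progesterone is rising, and day 14 falls in the luteal phase at high progesterone, shortly before the embryo's interferon tau is known to block luteolysis. Under sustained progesterone the epithelium of the endometrium loses its progesterone receptor, and its glands change what they release into the uterine lumen. These secretions, the histotroph, feed the embryo before it attaches. This is background, and the files do not show which of these steps any gene below belongs to: they name genes by Ensembl ID alone, and 0 of the 27607 IDs matched the reference table. Genes are therefore given by ID, no function is stated, and the labelled tissue could not be checked against marker genes.

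On day 14, 491 genes were higher than on day 5 and 654 were lower, out of 15654 tested (edgeR quasi-likelihood F-test, Benjamini-Hochberg adjusted p under 0.05). These 1145 genes are 7.31% of those tested, with 3.14% risen and 4.18% fallen. The change was at least 2-fold for 327 risen and 363 fallen genes, at least 4-fold for 123 and 169, and at least 16-fold for 25 and 45. The median log2 fold change was 1.26 over the risen genes and -1.10 over the fallen genes, against -0.04 over all genes tested. In 490 of the 491 risen genes and 628 of the 654 fallen genes the 4 libraries of one day lay wholly above the 4 of the other. Such a lack of overlap was seen in 18.1% of all genes tested, with 1296 (8.28%) above day 5 on day 14 and 1532 (9.79%) below. Without adjustment, 4076 genes (26.0%) had a p under 0.05, and day 14 was higher in 1828 of them and lower in 2248. Levels are given below as CPM, a gene's reads corrected for the sequencing depth of the library after TMM scaling.

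**Figure D1:**
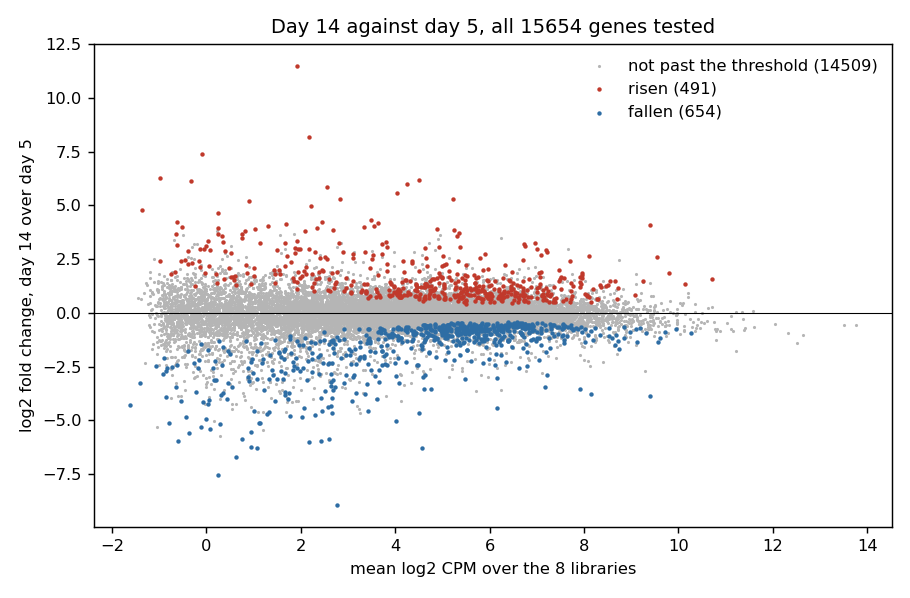
Log2 fold change of day 14 over day 5 (y axis) against mean log2 CPM over the 8 libraries (x axis), where each point is a gene. The 491 risen genes (red) and 654 fallen genes (blue) lie at all levels of expression, and most of the 15654 genes tested (grey: not past the threshold) lie close to 0.

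The number of genes called depended on which libraries were in the fit. Without day 5 replicate 3, edgeR called 1152 risen and 1476 fallen genes, 2628 in all, and these hold 1142 of the 1145. Without any other library the number fell. It was 174, 294 and 399 without day 5 replicates 1, 2 and 4, and 124, 822, 114 and 374 without day 14 replicates 1, 2, 3 and 4 in turn. A day with 1 library fewer also gives the test less power, so a fall does not by itself mark the library left out. In a fit that also held days 10 and 18, which share 1 estimate of the spread, edgeR called 367 of 16331 genes (2.25%), 184 risen and 183 fallen. Of these, 338 were among the 1145. DESeq2 called all 1145 among 3002 genes, and limma-voom with library weights called 1128 of them among 3671. All 8 fits that left out 1 library called 96 of the genes, 50 risen and 46 fallen, and 53 genes, 30 risen and 23 fallen, were called in 16 of the 17 alternatives run. The exception, a fit with the replicate number as a block, called far fewer genes. The labels do not say that these numbers pair animals across days, so it is left out of the plot of genes called under each setting, and its values are given with the effects of the processing.

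**Figure D2:**
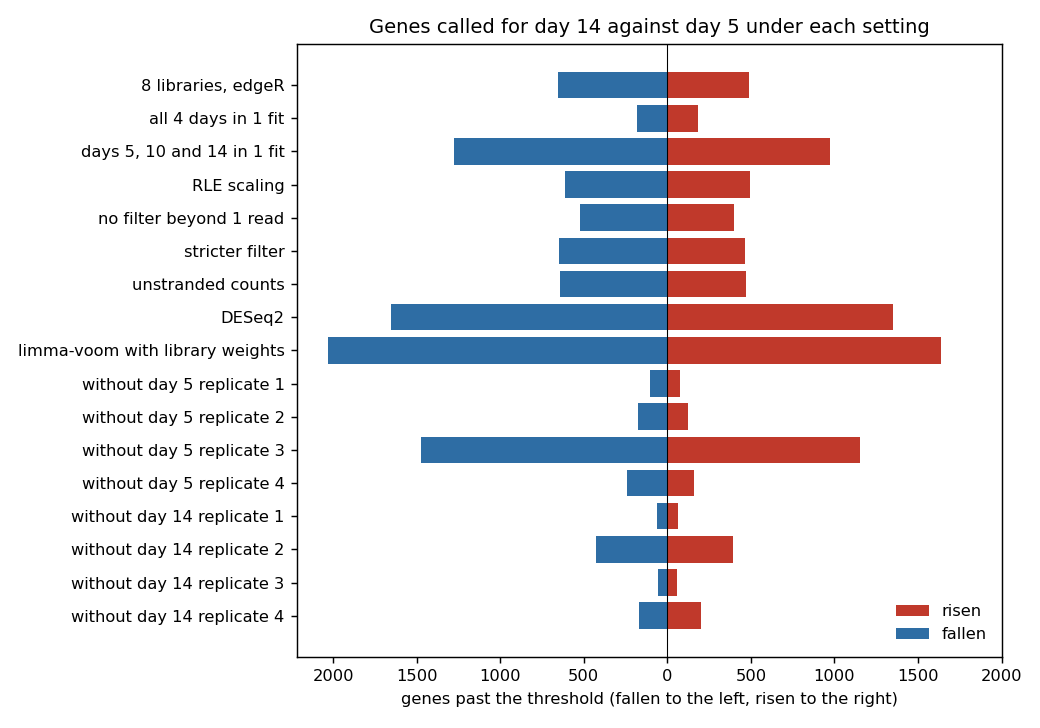
Number of genes past an adjusted p of 0.05 (x axis; risen in red to the right, fallen in blue to the left) under each setting but the replicate block (y axis). Among the settings shown the bars run from 114 genes without day 14 replicate 3 to 3671 with limma-voom, and leaving out day 5 replicate 3 gave more genes, 2628, than any other single library.

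Day 5 replicate 3 stood apart from the other day 5 libraries. It correlated with them at a mean Pearson r of 0.861 (log2 CPM across genes), where the other 3 had means of 0.925 to 0.936 within their day, and the day 14 libraries means of 0.946 to 0.963 within theirs. Its 100 largest genes held 29.6% of its gene reads, against 17.5% to 20.8% in the other day 5 libraries. The median over genes of the standard deviation between libraries was 0.422 on the log2 scale on day 5 and 0.314 on day 14. It was 0.235 over day 5 replicates 1, 2 and 4. Without replicate 3, 5001 of the 15654 genes tested showed no overlap between the days, 2277 of them higher on day 14 and 2724 lower. With all libraries there were 2828 (18.1% of those tested). Leaving out any library can only keep or raise this number. The count was not made without any other library, so the rise does not set replicate 3 apart. Of the 27 called genes whose libraries overlapped, 1 risen and 26 fallen, 21 overlapped through day 5 replicate 3 alone. The same count was not made for the other libraries. The median size of the log2 fold change over the 1145 called genes was 1.19 with day 5 replicate 3 and 1.20 without it, and 616 of them were further from 0 without it.

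To see whether a library resembled its own day, each was placed on the genes called without it. Day 5 replicate 1 was nearer to the mean of the other day 5 libraries than to the day 14 mean in 164 of 173 genes (94.8%), replicate 2 in 276 of 294 (93.9%) and replicate 4 in 346 of 399 (86.7%). For day 5 replicate 3 this was so in 1308 of 2625 genes (49.8%), and in 677 genes it lay beyond the day 14 mean. With its own day at 0 and day 14 at 1, its median position was 0.506. It was thus about as often nearer to day 14 as to its own day, over genes that it had no part in choosing. Across all genes it was not closer to day 14. Its mean Pearson r with the day 14 libraries was 0.848, below its 0.861 with its own day. The other day 5 libraries had means of 0.911 to 0.921 with day 14. The day 14 libraries were nearer to their own day in 123 of 124 genes (99.2%, replicate 1), 609 of 822 (74.1%, replicate 2), 111 of 114 (97.4%, replicate 3) and 312 of 373 (83.6%, replicate 4). The genes differ between libraries, so these shares show each library's own placement and not an order among them. No library label was changed, and day 5 replicate 3 is in every value below unless stated.

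**Figure D3:**
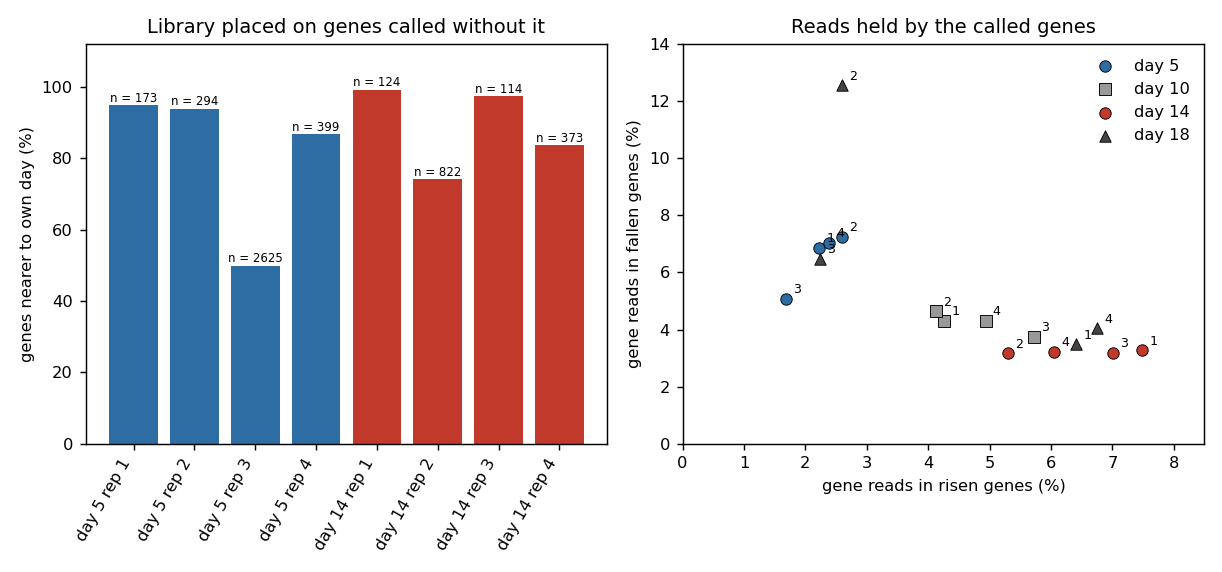
Left, the share of genes (y axis, %) in which each of the 8 libraries (x axis) lay nearer to its own day, over the n genes called without it, with day 5 replicate 3 at 49.8% and the others at 74.1% to 99.2%. Right, the share of gene reads in the risen (x axis, %) and the fallen genes (y axis, %) in all 16 libraries, each point a library with its replicate number. The day 5 and day 14 libraries form separate groups, over genes that were chosen on these same libraries.

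The called genes took up a modest part of each library. The 491 risen genes held between 1.68% and 2.60% of gene reads in the day 5 libraries and between 5.30% and 7.49% in the day 14 libraries. The 654 fallen genes went the other way, from between 5.08% and 7.26% on day 5 to between 3.17% and 3.27% on day 14. The lowest day 5 value of both was that of replicate 3. The shares are of raw gene reads, without TMM scaling. The TMM factor of day 5 replicate 3 was 0.775, against 0.971 to 1.05 in the other day 5 libraries, so part of its lower shares goes with that factor. These shares describe the genes chosen on the same libraries and are no test. Day 14 libraries were close to each other for the fallen genes and more spread for the risen genes.

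Genes of all levels changed. Among the 5218 genes with the lowest mean expression, 122 rose and 166 fell (5.52%). Among the 5218 of middle expression 155 rose and 204 fell (6.88%), and among the 5218 with the highest expression 214 rose and 284 fell (9.54%). The fold changes of called genes shrank as expression grew, from medians of 2.28 for risen and -2.71 for fallen genes on the log2 scale in the lowest of these classes to 1.01 and -0.80 in the highest. A weakly expressed gene needs a larger change to pass the test, so the sizes cannot be compared as biology across levels. Of the 100 most abundant genes, 5 rose and 6 fell (11.0%, against 7.31% of all genes tested).

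A few genes were close to absent on one day. On day 5, 4 genes had at most 3 reads in the 4 libraries together and at least 10 reads in every day 14 library, and all 4 were called as risen. The highest of these averaged 129.6 CPM on day 14. In the opposite direction there was 1 such gene, also called, which averaged 0.754 CPM on day 5. Of all genes tested, 3.14% were called as risen and 4.18% as fallen. Since the genes of both kinds were picked on the same reads that were tested, their calls add no support. Absence here means no more than these few reads at 19115995 to 24291006 gene reads per library.

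The 4 genes named here have the largest fold changes in each direction among called genes whose days did not overlap and whose log2 CPM averaged at least 1. ENSBTAG00000046768 was the gene of 129.6 CPM just mentioned. Its 4 day 14 libraries had 4620, 3075, 3381 and 698 reads (207, 129, 148 and 34.1 CPM, replicates 1 to 4). The 4 day 5 libraries had 1, 0, 2 and 0 reads in the same order. The days did not overlap, as the choice of genes requires, and replicate 4 was the lowest of day 14. The depth-scaled ratio of day 14 to day 5 was 3404, with a 95% exact binomial interval of 1164 to 16507 that covers counting error only (adjusted p = 0.00486 by edgeR). Without day 5 replicate 3, which carries 2 of the 3 reads, the ratio was 8263 (interval 1483 to 326391, adjusted p = 0.00141 by edgeR). The call held in all 17 alternatives, the block included, with adjusted p of at most 0.0465.

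ENSBTAG00000021118 rose to 77.6 CPM ± 43.4 (SD, n = 4) on day 14 from 0.263 ± 0.177 on day 5. Its day 5 libraries had 10, 4, 4 and 2 reads (0.506, 0.183, 0.270 and 0.0945 CPM, replicates 1 to 4), and its day 14 libraries 114, 102, 77.6 and 16.7 CPM. Replicate 4 was again the lowest of day 14, and still 33 times the highest day 5 library. By edgeR, its log2 fold change had a value of 8.19 ± 0.79 (SE) with an adjusted p of 0.00720, and the call held in all 17 alternatives, the block included, with adjusted p of at most 0.0363.

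ENSBTAG00000035171 had the largest fall. On day 5 it was at 227, 283, 3.58 and 305 CPM in replicates 1 to 4, so that replicate 3 was far below the other 3, and on day 14 at 0.448, 0.377, 0.483 and 0.342 CPM. Even replicate 3 lay above every day 14 library, as the choice of genes without overlap requires. The means were 205 CPM ± 138 (SD, n = 4) on day 5 and 0.412 ± 0.0647 on day 14. By edgeR the log2 difference was -8.93 ± 1.32 (SE), with an adjusted p of 0.0134. Without day 5 replicate 3 the day 5 mean was 272 CPM ± 40.3 (SD, n = 3) and the log2 fold change -9.32. The call was lost without day 14 replicate 1 and without day 14 replicate 3, where the highest adjusted p was 0.0579 by edgeR, and also with the replicate block.

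ENSBTAG00000009014 was at 497, 362, 49.5 and 143 CPM in the day 5 libraries and at 3.99, 5.56, 2.42 and 1.32 CPM in the day 14 libraries (replicates 1 to 4). The days were far apart, as the choice of genes favours, and replicate 3 was again the lowest of day 5. The means were 263 CPM ± 204 (SD, n = 4) and 3.32 ± 1.85. By edgeR the log2 difference was -6.30 ± 0.86 (SE), with an adjusted p of 0.0125. The call was lost without the same 2 libraries as that of ENSBTAG00000035171, where the highest adjusted p was 0.0529 by edgeR, and also with the replicate block. In a biopsy, fewer cells of a type and less RNA per cell cannot be told apart for any of these genes.

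**Figure D4:**
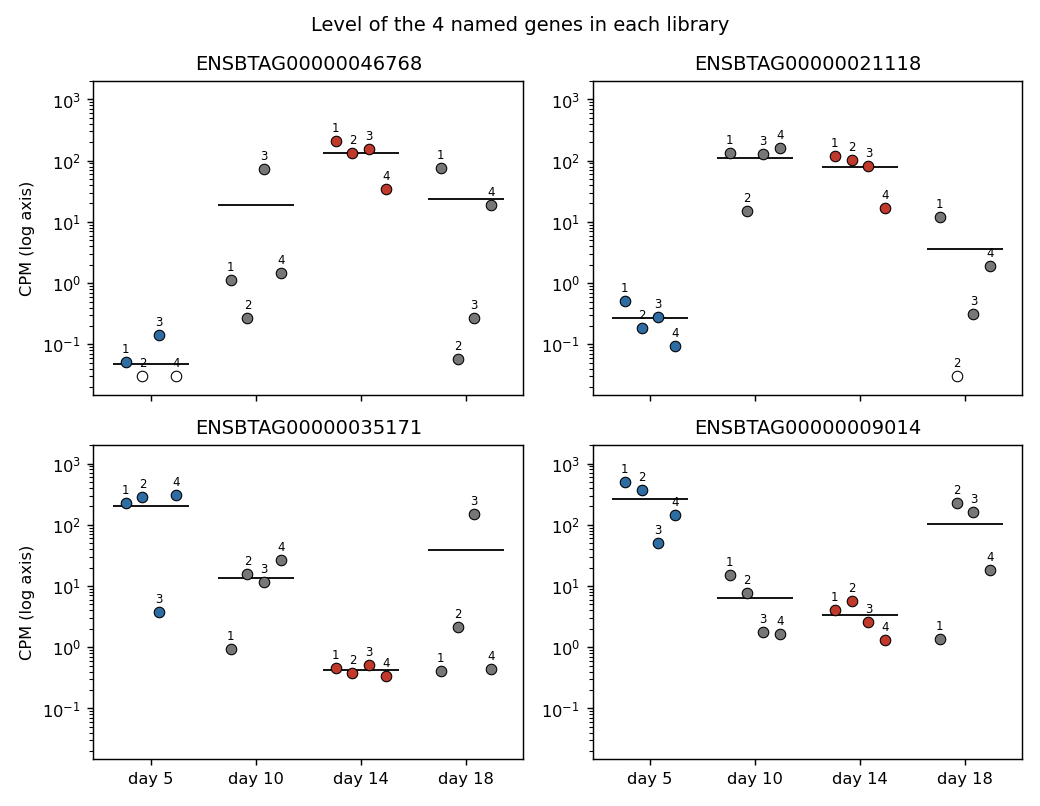
CPM of the 4 named genes (y axis, log scale) in each of the 16 libraries by day (x axis), scaled together; points carry the replicate number, lines are day means and open points at the lower edge had 0 reads. The day 5 (blue) and day 14 (red) libraries do not overlap for any of the 4 genes, which were chosen for this. The libraries of days 10 and 18 (grey) spread between and around them.

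The levels on days 10 and 18 place these changes in the course of the study, as a description with no test. ENSBTAG00000021118 was already at 15.3 to 159 CPM in the day 10 libraries, while ENSBTAG00000046768 was at 0.268 to 1.46 CPM in day 10 replicates 1, 2 and 4 and at 73.0 CPM in replicate 3. The 2 risen genes thus had different levels on day 10. ENSBTAG00000035171 was at 0.939 to 26.6 CPM on day 10, and ENSBTAG00000009014 at 1.65 to 14.9 CPM. Both fallen genes were below most day 5 libraries by then. On day 18 replicates 2 and 3 had 0.0579 and 0.269 CPM of ENSBTAG00000046768, against 77.2 and 18.7 CPM in replicates 1 and 4, and 230 and 164 CPM of ENSBTAG00000009014, against 1.37 and 18.1 CPM. For these 2 genes replicates 2 and 3 were near the day 5 levels, replicate 1 near those of day 14 and replicate 4 between. The other 2 genes did not follow this pattern in every library. On day 18 ENSBTAG00000035171 was at 0.410, 2.14, 149 and 0.441 CPM in replicates 1 to 4, so that replicate 3 alone was near the higher day 5 levels. ENSBTAG00000021118 was at 12.0, 0, 0.314 and 1.91 CPM, all below the lowest day 14 library.

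The levels of all called genes were placed in the same way. The day 10 mean lay between those of days 5 and 14 for 442 of 491 risen and 563 of 654 fallen genes, and at or past that of day 14 for 44 and 79. On a scale with the day 5 mean at 0 and the day 14 mean at 1, the median risen gene was at 0.531, 0.534, 0.888 and 0.701 in day 10 replicates 1 to 4, and the median fallen gene at 0.559, 0.683, 0.890 and 0.695. In day 18 replicates 1 and 4 these medians were 0.940 to 0.959, close to day 14. In replicates 2 and 3 they were 0.231 and -0.0268 for risen and 0.106 and 0.0104 for fallen genes. Since the genes were chosen on days 5 and 14, these positions overstate how far those days part.

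Some library measures also moved with the day. Reads without a gene feature made up 24.6% ± 1.54 (SD, n = 4) of all reads that were counted on the gene strand or found no gene there on day 5 and 30.2% ± 2.42 on day 14, and the days did not overlap, with 23.1% to 26.3% against 27.6% to 33.4%. Unmapped reads made up 8.68% ± 0.494 (SD, n = 4) on day 5 and 7.86% ± 0.120 on day 14, again without overlap. Each difference had a two-sided exact permutation p of 0.0286, the smallest that 4 against 4 allows, and 0.100 after adjustment over the 7 measures compared. On day 18 the share without a gene feature was 24.6% and 24.7% in replicates 2 and 3, within the range of day 5. It was 30.4% and 30.7% in replicates 1 and 4, within that of day 14. Unmapped reads did not split in this way. They made up 7.998%, 11.04%, 8.71% and 9.48% in day 18 replicates 1 to 4. Replicates 2 and 4 thus both lay above every day 5 library. On day 10 the share without a gene feature was 27.55%, 30.6%, 30.7% and 29.8% in replicates 1 to 4. Replicate 1 was just below the day 14 range and the others within it, while the median called genes there lay between days 5 and 14. Whether these shares have a part in the calls was not tested. Gene reads, ambiguous reads, reads on the other strand, the share of the 100 largest genes and the number of genes with a read had exact permutation p of 0.200 or more.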

How the data were processed

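The members and lists were chosen with earlier results of these data known, as was the fit of days 5 and 14 alone. The authors deposited raw read counts per gene, not normalised, 1 table per library, in the STAR layout. The submitters' processing notes list STAR, FastQC and edgeR, with no version. The aligner's genome build is not given in the sources used here, nor is the annotation. Libraries were poly(A)-selected and stranded, per the labels' protocols. The matching-strand column was used, with the 4 summary lines left out; its gene totals were 19115995 to 24291006 reads over the 8 libraries. The line for reads mapping to several places is 0 throughout, so genes with near-identical copies are uncertain.

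Genes passing filterByExpr were scaled by TMM and tested with edgeR 4.0.16 (robust quasi-likelihood, R 4.3.3), with Benjamini-Hochberg adjustment. The SE was the size of the log2 fold change divided by the square root of F. Log2 CPM used a prior count of 2. In the alternatives, limma 3.58.1 and DESeq2 1.42.0 were used, RLE scaling, a filter of only 1 read, a stricter filter (a mean log2 CPM of 1, and 10 reads in every library of either day), unstranded counts, other days in the fit, a replicate block and each library left out. Named genes were those with the largest change past the threshold, no overlap and an average log2 CPM of 1 or more. As 0 IDs matched the NCBI RefSeq genes of ARS-UCD2.0, at most 2 IDs per direction are named and no gene list or marker list was used. Counts were simulated with the depths, mean levels and spread of the main fit, with 100 genes changed 2-fold and 100 changed 4-fold. Of these, 7% of the 2-fold changes and 59% of the 4-fold changes were recovered, with 0 false calls among 66, over 15597 genes. Far fewer genes were changed than were called in the data, and no library that stands apart was simulated. The shares therefore do not give the power or the error rate of the comparison itself. SciPy 1.17.1 gave the exact tests.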

Additional observations from a re-analysis of the deposited data

Results flagged for a closer look

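In 4 of 26 groups of 4 libraries examined, 1 library lay far from the other 3, where chance gives about 1 in 20 for independent groups. The groups are several measures of the same libraries, and the named genes were chosen on these data. The number flagged can therefore not be compared with that rate. Of the 4 flagged groups, 3 concern day 5 replicate 3. It had 9.42% unmapped reads, against 8.40% to 8.46% in the other day 5 libraries. Its mean correlation with its own day was 0.861, against 0.925 to 0.936. Its log2 CPM of ENSBTAG00000035171 was 1.88, against 7.82 to 8.25. In day 14 replicate 2 the 100 largest genes held 20.8% of gene reads, against 15.9% to 16.7% in the other day 14 libraries.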

How the results depend on the processing

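The count of 1145 genes (491 risen, 654 fallen) was within 1.5 times with RLE scaling, either change of filter, or unstranded counts. It was 367 (184 and 183) with all 4 days in the fit, 2249 (974 and 1275) with days 5, 10 and 14, 3002 (1348 and 1654) with DESeq2 and 3671 (1640 and 2031) with limma-voom. With 1 library left out it ran from 114 to 2628, with 59 to 1152 risen and 55 to 1476 fallen genes. With the replicate number as a block it was 9 (6 risen, 3 fallen), all among the 1145, and the adjusted p by edgeR of ENSBTAG00000035171 and ENSBTAG00000009014 was 0.0836 and 0.0679. The labels do not say that a number is shared across days, and deviations of same-numbered libraries correlated at 0.06, -0.31, -0.05 and 0.39, so the numbers were not taken as pairs. Among the day 5 libraries, only replicate 4 correlated best with its own number. The share without a gene feature, added after seeing the data, differed by 4.52 to 6.47 percentage points with 1 library left out, where 3 against 4 cannot reach an exact p under 0.0571, and by 5.61 with unstranded counts. RLE scaling put the median log2 fold change of all genes at -0.03. Alternatives for the gene lists were not run, as no list could be matched.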
